A study of Mus musculus with 8 samples.

Results

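The cell cycle and DNA replication genes described here are 60 genes of chromosome duplication and division, taken by symbol among the 36799 genes and other targets of the Agilent mouse expression array. Each probe was assigned to a gene through the RefSeq accession it carries, and all 60 genes had a probe, 77 probes in all. They fall into 29 genes of DNA replication and its control and 31 genes of mitosis. In at least 1 genotype, 58 of them exceeded the background clearly on 3 or more of the 4 arrays and were tested, among 23234 genes and other targets that did so. RNA came from the dispase-separated epidermis of newborn (P0) back skin of 4 EED cKO mice (K14-Cre; EED flox/flox, labelled Eed cKO) and 4 control mice (labelled CTL), all given as C57BL/6. The Krt14 promoter drives Cre in the embryonic epidermal progenitors, so that cells of other lineages in the peeled epidermis keep Eed, and the labels do not give the alleles of the control mice. Each sample was hybridised against Universal Mouse Reference RNA, a commercial pool of mouse RNA, with the sample in Cy3 on replicates 1 and 3 and in Cy5 on replicates 2 and 4 of both genotypes. All values below are log2 ratios of sample over reference, and a fold change is EED cKO over control.

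Epidermal progenitors of the basal layer and of the growing hair follicle divide, and their daughters leave the cell cycle as they move outward. Before S phase, the MCM helicase is loaded onto replication origins by Cdc6 and Cdt1, and E2F factors, held back by the RB family until cyclin-dependent kinases release them, switch on the genes of replication. The genes of mitosis follow later under B-Myb, FoxM1 and the MuvB complex, and E2f7 and E2f8 are repressors that close the E2F programme again. EED is a core subunit of Polycomb repressive complex 2 (PRC2), which methylates histone H3 on lysine 27, and the locus of the CDK inhibitor p16 is a classical target of it.

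Promoters of replication and mitosis genes held different letters. RefSeq promoter windows on GRCm38.p6, from 250 bases before to 50 bases after each annotated start, were matched to 50 of the 60 genes, in 53 windows, with Gmnn, Mcm4, Ccne2, Rb1, Ccna2, Cdc25c, Aurkb, Kif20a, Tpx2 and Foxm1 not matched. An E2F-type site, searched as TTTCCCGC, TTTGGCGC, TTTCGCGC or TTTGCCGC on both strands, was found in 12 of 27 windows of replication genes (44.4%) and in 2 of 26 windows of mitosis genes (7.69%), against 2.26% of the 32851 windows of all genes. The CHR element, bound by the MuvB complex and searched as TTTGAA or TTCGAA, was in 6 windows of replication genes (22.2%) and 20 of mitosis genes (76.9%), against 19.2% of all windows. CCAAT was in 70.4% and 76.9% of them against 37.4%. Overlapping hits of different letters were counted as separate sites. The 250 bases before the start are shown for the replication and mitosis genes with the largest fold changes, 5′ to 3′ on the strand of the gene, with the letters searched for in capitals. They are E2f8 on chr7:48881597-48881846 (minus strand), Mcm6 on chr1:128359706-128359955 (minus strand), Mki67 on chr7:135716380-135716629 (minus strand) and Cenpe on chr3:135212313-135212562 (plus strand).
E2f8: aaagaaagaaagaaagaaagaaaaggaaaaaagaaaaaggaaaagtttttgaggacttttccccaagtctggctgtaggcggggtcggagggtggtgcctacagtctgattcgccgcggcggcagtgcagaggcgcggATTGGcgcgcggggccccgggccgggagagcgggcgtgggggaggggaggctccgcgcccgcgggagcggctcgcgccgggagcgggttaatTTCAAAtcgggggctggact
Mcm6: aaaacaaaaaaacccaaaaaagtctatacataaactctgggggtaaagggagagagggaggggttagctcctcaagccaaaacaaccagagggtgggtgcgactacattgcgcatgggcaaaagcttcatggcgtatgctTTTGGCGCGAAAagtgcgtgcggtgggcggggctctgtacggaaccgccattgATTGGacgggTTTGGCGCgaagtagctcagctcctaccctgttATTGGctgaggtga
Mki67: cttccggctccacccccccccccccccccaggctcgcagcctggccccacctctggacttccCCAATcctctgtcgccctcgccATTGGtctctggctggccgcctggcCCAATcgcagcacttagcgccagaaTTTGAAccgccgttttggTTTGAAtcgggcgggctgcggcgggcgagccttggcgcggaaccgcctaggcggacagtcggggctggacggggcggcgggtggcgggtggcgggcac
Cenpe: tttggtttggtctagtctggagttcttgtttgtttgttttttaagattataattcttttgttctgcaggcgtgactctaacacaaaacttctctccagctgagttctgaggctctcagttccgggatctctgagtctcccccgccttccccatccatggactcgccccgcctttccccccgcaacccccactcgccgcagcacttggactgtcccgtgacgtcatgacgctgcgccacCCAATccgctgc
Mcm6 held 3 E2F-type hits, of which a pair overlaps at 110 and 106 bases before the start and 1 begins 47 bases before it. Mki67 held TTTGAA at 116 and 98 bases before its start, downstream of 3 CCAAT or ATTGG letters. E2f8 held TTCAAA, the CHR letters of the other strand, 20 bases before its start, and the Cenpe window held only CCAAT. Among genes whose RNA fell in EED cKO (the test follows), 5 of 11 matched genes held an E2F-type site and 4 of 11 a CHR element, against 8 of 37 and 19 of 37 of those that did not pass.

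The share of probes with a sample signal well above background was 51.5% to 54.9% on the Cy3 arrays and 59.8% to 65.5% on the Cy5 arrays, and 0 spots were saturated. The targeted gene Eed was lower on every EED cKO array, with log2 ratios from -2.04 to -1.66 against -0.46 to -0.18 in the controls. Y-linked RNA was present on control replicates 2 and 3 (mean log2 ratios 1.19 and 1.02) and on no other array (-1.51 to -1.31). Each genotype occupied its own row of 1 slide, so that row and genotype cannot be told apart, and their number limits the precision of all values.

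Cell cycle RNAs were lower in EED cKO epidermis, modestly and in part of the list. Of the 58 genes tested, 16 fell and 0 rose at an adjusted p below 0.05 (limma, Benjamini-Hochberg over all 23234 features), which is 27.6% against 21.6% of all features called in either direction, 9.89% called lower and 11.8% called higher. Another 10 genes, all lower, had an unadjusted p below 0.05, with adjusted p from 0.0504 to 0.137. The log2 fold change was below 0 for 46 of the 58 genes (79.3%, against 46.1% of all features), with a median of -0.19 against 0.02 for all features. The falls were between 1.16-fold (Aurkb) and 1.74-fold (E2f8), so that 0 of the 58 genes passed at 2-fold, a limit that 1.20% of all features met. For 15 genes all 4 EED cKO arrays lay below all 4 controls, as for 7.48% of all features. The count was 9 with no term for the dye, where 10.2% of all features were called. It was 2, both replication genes, with the methods' t-test after Benjamini-Hochberg, where 3.90% of all features were called. In whole epidermis, fewer dividing cells and less RNA per cell cannot be told apart.

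**Figure D1:**
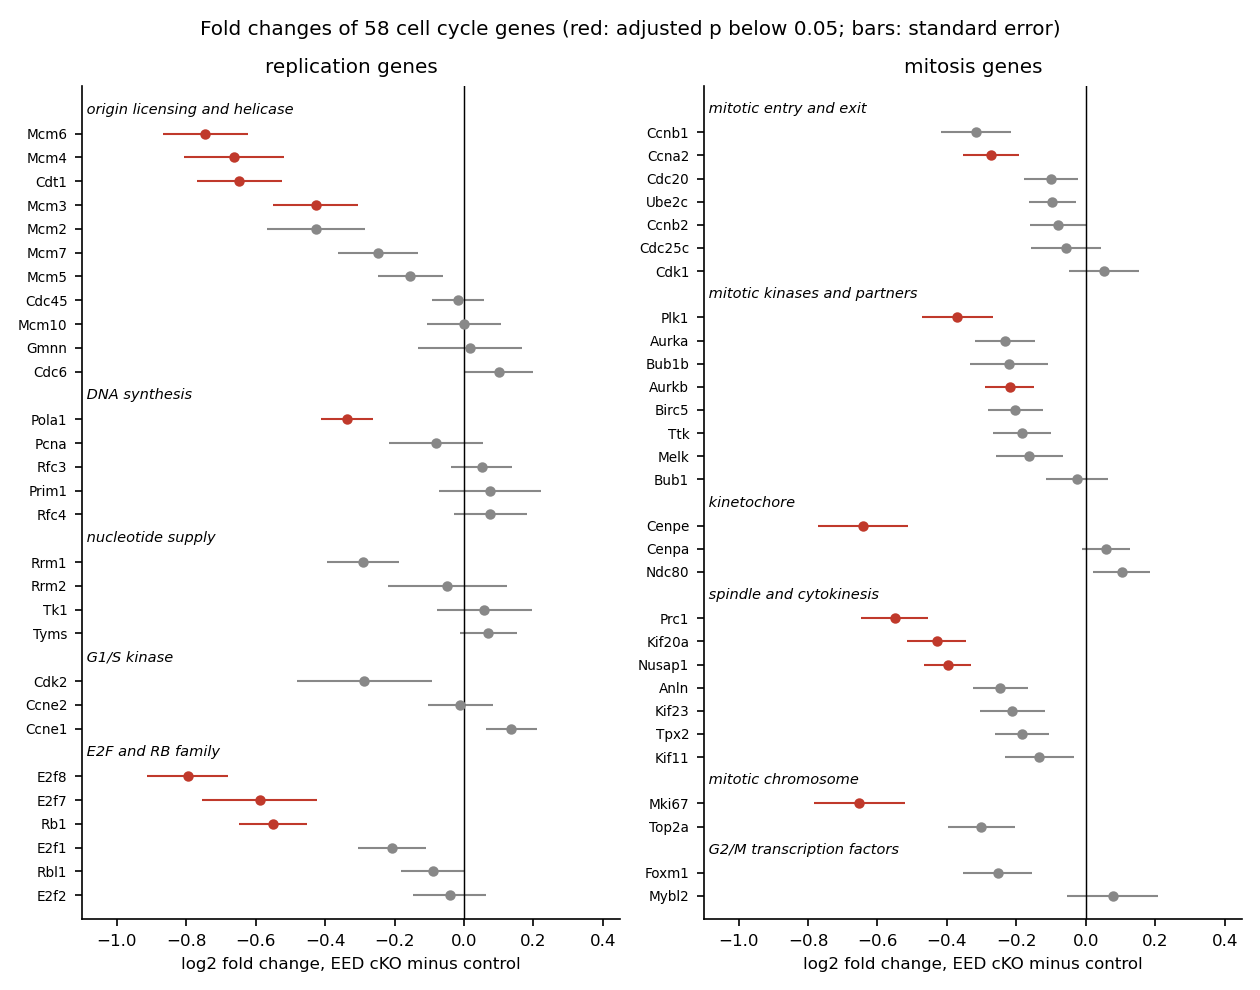
Log2 fold change (EED cKO minus control, x axis) of the 58 tested genes, grouped by role on the y axis, with points and bars for the estimate and its standard error from limma and red for an adjusted p below 0.05. The 8 red replication genes and 8 red mitosis genes all lie left of 0, and the largest change is that of E2f8 at -0.80.

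Replication and mitosis genes gave the same number of calls. Of the 29 replication genes, 8 fell (27.6%), 21 were below 0, and the median log2 fold change was -0.09, with a range from -0.80 to 0.14. Of the 29 tested mitosis genes, 8 fell (27.6%), 25 were below 0, and the median was -0.21, with a range from -0.65 to 0.10. The difference between these groups of genes was not tested. The count of mitosis genes dropped to 5, and that of replication genes to 6, without EED cKO replicate 2 or 4 or control replicate 2 or 4. Of all features, 11.7% to 18.0% were called in those fits. The replication median was -0.15 without EED cKO replicate 1 or control replicate 2, -0.21 without control replicate 3, and -0.06 without control replicate 4. It was -0.18 with the deposited log ratios in place of those computed here, and -0.15 with the median over the probes of a gene.

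Origin licensing genes gave some of the largest falls, led by subunits of the MCM2-7 helicase. Of the 11 genes of origin licensing and helicase, 4 fell (36.4%, against 9.89% of all features called lower). For 5 of the 11, every EED cKO array lay below every control, as for 7.48% of all features. Mcm6 had log2 ratios of -1.96, -2.28, -1.85 and -2.33 on EED cKO replicates 1 to 4 and of -1.38, -1.28, -1.56 and -1.22 on control replicates 1 to 4. The groups did not overlap, and Mcm6 fell 1.68-fold (log2 fold change -0.74 ± 0.12 SE, adjusted p = 0.00359 with limma). Mcm4, another helicase subunit, stood at -1.97, -1.97, -2.00 and -2.03 in EED cKO and -1.78, -1.03, -1.66 and -0.85 in control. Its EED cKO values were nearly equal, while control replicates 2 and 4, the Cy5 arrays, were well above replicates 1 and 3, and it fell 1.58-fold (-0.66 ± 0.15, adjusted p = 0.0122). Cdt1, the loader of the helicase, was at -2.04, -2.21, -2.06 and -2.34 against -1.73, -1.31, -1.73 and -1.29, again without overlap. Its fall was 1.57-fold (-0.65 ± 0.12, adjusted p = 0.00669). Mcm3 was the fourth to fall (-0.43 ± 0.12, adjusted p = 0.0349), a call made in 12 of 25 alternative settings. Mcm2 had nearly the same estimate and groups that did not overlap but missed the threshold (-0.43 ± 0.14, adjusted p = 0.0571), and Mcm7 and Mcm5 were at -0.25 and -0.15. The remaining genes of the origin licensing and helicase group were close to 0. Cdc6, which acts with Cdt1, was at 0.10 ± 0.10 and the Cdt1 inhibitor geminin (Gmnn) at 0.02 ± 0.15. Cdc45 was at -0.02 and Mcm10 at -0.00025.

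Pola1, the catalytic subunit of DNA polymerase alpha, was the 1 gene of 5 in DNA synthesis that fell (20%, against 9.89% of all features called lower). It stood at -1.20, -1.42, -1.08 and -1.32 in EED cKO and -0.85, -1.02, -0.93 and -0.88 in control, without overlap, and fell 1.26-fold (-0.34 ± 0.07, adjusted p = 0.0126, limma). Its primase partner Prim1 was at 0.08 ± 0.15, the sliding clamp Pcna at -0.08 ± 0.14, and the clamp loader subunits Rfc3 and Rfc4 at 0.05 and 0.08. None of the 4 genes that supply nucleotides passed. Rrm1, the large subunit of ribonucleotide reductase, had the largest estimate, with -1.16, -1.73, -1.26 and -1.58 in EED cKO and -1.08, -1.19, -1.21 and -1.08 in control. Only the Cy5 replicates 2 and 4 of EED cKO lay clearly below the controls (-0.29 ± 0.10, adjusted p = 0.0726, and -0.36 with an adjusted p of 0.0371 without control replicate 3). Rrm2, its partner, was at -0.05 ± 0.17, thymidine kinase Tk1 at 0.06 ± 0.14 and thymidylate synthase Tyms at 0.07 ± 0.08.

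The G1/S kinase did not pass either. Cdk2 had log2 ratios of -0.67, -0.35, -0.04 and 0.16 in EED cKO and -0.10, -0.23, 0.01 and 0.57 in control, and a spread between replicates (SD 0.37 and 0.35) larger than the difference (-0.29 ± 0.19, adjusted p = 0.325, limma). The Cdk2 value was -0.16 and -0.19 without EED cKO replicates 1 and 2, -0.45 and -0.13 without control replicates 2 and 4, and -0.52 with the deposited log ratios. Its cyclins Ccne1 and Ccne2 were at 0.14 ± 0.07 and -0.01 ± 0.09, and Ccne2 was well above background on 2 of 4 control arrays only.

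In the E2F and RB family, 3 of 6 genes fell (50%, against 9.89% of all features called lower). E2f8, an atypical repressor E2F, was at -1.12, -1.29, -1.005 and -1.19 on EED cKO replicates 1 to 4 and at -0.30, -0.26, -0.68 and -0.17 on the controls. Control replicate 3 was the lowest control and still above every EED cKO array. The 1.74-fold fall was the largest of the list (-0.80 ± 0.12, adjusted p = 0.00216, limma). E2f7, its close relative, was at -0.75, -0.66, -0.81 and -0.78 in EED cKO and 0.12, 0.06, -0.79 and -0.04 in control. Here control replicate 3 lay inside the EED cKO range, the exact permutation p over the 8 arrays was 0.114, and the limma call (-0.59 ± 0.17, adjusted p = 0.033) was made in 14 of 26 alternative settings. Leaving out any array other than control replicate 3 lost the E2f7 call. A dimmer E2f7 probe gave 0.03. Rb1, the retinoblastoma protein that restrains the activating E2Fs, stood at -0.56, -0.57, -0.72 and -0.86 against 0.15, -0.26, -0.10 and -0.31 without overlap, a fall of 1.46-fold (-0.55 ± 0.10, adjusted p = 0.00498). Rb1 fell on the Cy3 arrays (-0.67) and on the Cy5 arrays (-0.43). The activating E2f1 and E2f2 were at -0.21 ± 0.10 and -0.04 ± 0.11, and Rbl1 (p107), a relative of Rb1, at -0.09 ± 0.09.

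**Figure D2:**
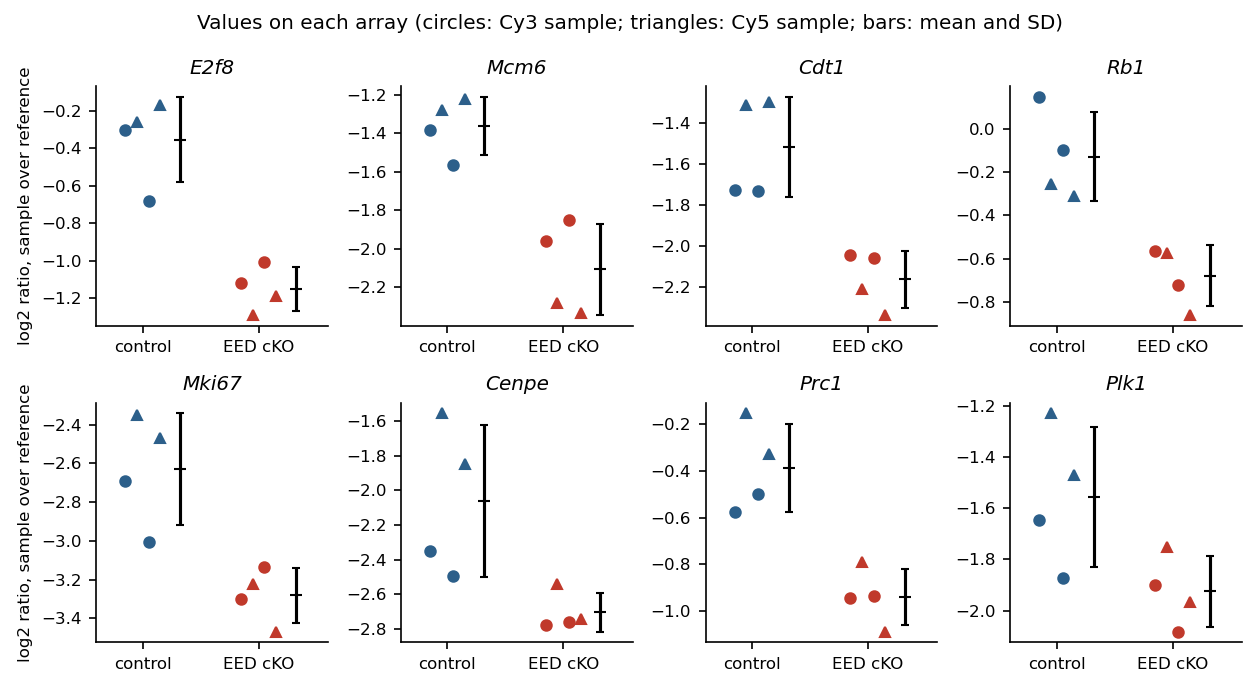
Log2 ratio of sample over reference (y axis, a separate scale per gene) on each control (blue) and EED cKO (red) array for 8 genes, with circles for Cy3 samples, triangles for Cy5 samples and black bars for the mean and SD of 4 arrays. For E2f8, Mcm6, Cdt1, Rb1, Mki67, Cenpe and Prc1 every EED cKO array lies below every control, while for Plk1 control replicate 3 at -1.87 lies among the EED cKO arrays.

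Among the genes that start and end mitosis, 1 of 7 fell (14.3%, against 9.89% of all features called lower). Ccna2 (cyclin A2) was at -1.74, -1.51, -1.66 and -1.60 in EED cKO and -1.50, -1.15, -1.63 and -1.13 in control. Control replicate 3 lay within the EED cKO range, and the fall was 1.21-fold (-0.27 ± 0.08, adjusted p = 0.0379, limma), called in 10 of 26 alternative settings. Cyclin B1 (Ccnb1) had the larger estimate and missed the threshold (-0.32 ± 0.10, adjusted p = 0.0505, and 0.036 with the replicate number as a block), and its 2 dimmer probes were at 0.02 and 0.08. The mitotic kinase Cdk1 was at 0.05 ± 0.10, cyclin B2 (Ccnb2) at -0.08, the phosphatase Cdc25c at -0.06, and the anaphase-promoting complex partners Cdc20 and Ube2c at -0.10 and -0.10.

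All 8 mitotic kinases and their partners had estimates below 0, and 2 fell (25%, against 9.89% of all features called lower). Plk1, a kinase of centrosomes and kinetochores, was at -1.90, -1.75, -2.08 and -1.97 in EED cKO and -1.65, -1.23, -1.87 and -1.47 in control, with 1 control array inside the EED cKO range. Its fall was 1.29-fold (-0.37 ± 0.10, adjusted p = 0.031, limma), called in 12 of 26 alternative settings. Aurkb (Aurora B), the kinase of the chromosomal passenger complex, was at -0.55, -0.82, -0.56 and -0.75 against -0.35, -0.47, -0.48 and -0.51. The groups did not overlap, but the change of 1.16-fold was the smallest one called (-0.22 ± 0.07, adjusted p = 0.0492), and it was called in 10 of 26 alternative settings. Its adjusted p was 0.056 with the replicate number as a block, and leaving out any array other than control replicate 3 lost the call, while the deposited log ratios gave -0.48. Survivin (Birc5), of the same complex, was at -0.20 ± 0.08, Aurora A (Aurka) at -0.23 ± 0.09, and the checkpoint kinases Bub1b, Ttk and Bub1 at -0.22, -0.18 and -0.03. Melk was at -0.16.

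Of 3 kinetochore genes tested, 1 fell (33.3%, against 9.89% of all features called lower). Cenpe, the kinetochore motor, was at -2.78, -2.54, -2.76 and -2.74 in EED cKO and -2.35, -1.56, -2.49 and -1.85 in control. The lowest control, replicate 3, was just above the highest EED cKO array, and Cenpe fell 1.56-fold (-0.64 ± 0.13, adjusted p = 0.00839, limma). The centromeric histone Cenpa and the kinetochore protein Ndc80 were at 0.06 ± 0.07 and 0.10 ± 0.08. Cenpf was well above background on 0 EED cKO arrays and 1 control array and was not tested. Of the 7 spindle and cytokinesis genes, all below 0, 3 fell (42.9%). Prc1, which bundles microtubules of the central spindle, was at -0.94, -0.79, -0.94 and -1.09 against -0.58, -0.15, -0.50 and -0.33, a fall of 1.47-fold (-0.55 ± 0.10, adjusted p = 0.00457). Kif20a, a kinesin of the central spindle, was at -1.16, -1.23, -1.09 and -1.12 against -0.88, -0.56, -0.86 and -0.57 (-0.43 ± 0.09, adjusted p = 0.00833). Nusap1, a spindle-associated protein, was at -0.69, -0.72, -0.57 and -0.81 against -0.15, -0.40, -0.23 and -0.41 (-0.40 ± 0.07, adjusted p = 0.00413). None of these 3 genes, named because they were called on the same arrays, overlapped between genotypes. For 7.48% of all features every EED cKO array likewise lay below every control. Anln (anillin, -0.25, adjusted p = 0.0517) also had groups that did not overlap but missed the threshold, and Kif23, Tpx2 and Kif11 were at -0.21, -0.18 and -0.13.

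Mki67, which encodes the proliferation antigen Ki-67 of the mitotic chromosome surface, was at -3.30, -3.22, -3.14 and -3.47 on EED cKO replicates 1 to 4 and at -2.69, -2.35, -3.00 and -2.47 on the controls. The groups did not overlap, and Mki67 fell 1.57-fold (-0.65 ± 0.13, adjusted p = 0.00851, limma). A second Mki67 probe gave -0.64. Topoisomerase Top2a was at -0.30 ± 0.10 and missed the threshold (adjusted p = 0.0504, and 0.025 with the replicate number as a block). Ncapg, a condensin subunit, was well above background on 1 EED cKO and 2 control arrays and was not tested. Of the transcription factors of the G2/M genes, Foxm1 was at -1.04, -1.01, -1.02 and -1.24 in EED cKO and -0.74, -0.70, -1.07 and -0.78 in control, with control replicate 3 inside the EED cKO range (-0.25 ± 0.10, adjusted p = 0.0952, and -0.35 with an adjusted p of 0.0214 without that array). B-Myb (Mybl2) was at 0.08 ± 0.13.

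The difference of means was also tested by exact two-sided permutation of the 8 arrays for each gene. The smallest p that 4 arrays against 4 can give, 0.0286, is that of any gene whose groups do not overlap. It was therefore reached by the same 15 genes, which include 13 of the 16 genes that fell, and adds nothing to that count. For 7.48% of all features the EED cKO arrays likewise lay below all controls.

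The genes varied together between arrays, and control replicate 3 was the lowest control. The median deviation of the 58 genes from their means over the 8 arrays was -0.06, -0.19, -0.05 and -0.12 on EED cKO replicates 1 to 4 and 0.11, 0.10, -0.02 and 0.19 on the controls. Every control was above every EED cKO array, replicate 3 by the least. For the 16 genes that fell, the medians ran from -0.36 to -0.20 in EED cKO and from 0.07 to 0.47 in control. Those 16 were chosen as lower on these same arrays, so that their separation follows from the choice and adds no support. Mitosis genes kept that separation (-0.13 to -0.08 against -0.05 to 0.17). Replication genes did not (-0.27 to 0.03 against -0.08 to 0.21), with control replicate 2 and EED cKO replicate 2 as the lowest arrays of their groups. After removal of genotype and dye, the median correlation between pairs of the 58 genes was 0.41 over the 8 arrays, which share a slide and a normalisation. It was not computed for other genes, so that it cannot be called particular to these. Same-numbered samples deviated together over all features (correlations 0.33 to 0.68) as well as over the 58 genes (0.30 to 0.72). Without control replicate 3, which holds Y-linked RNA, 22 genes were called in place of 16, and 19.8% of all features in place of 21.6%. Without control replicate 2, which holds Y-linked RNA too, 11 genes were called, and 11.7% of all features. With the 4 EED cKO arrays and the 2 control arrays that hold no Y-linked RNA, 14 were called, 12 of them among the 16. That fit called 11.2% of all features.

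**Figure D3:**
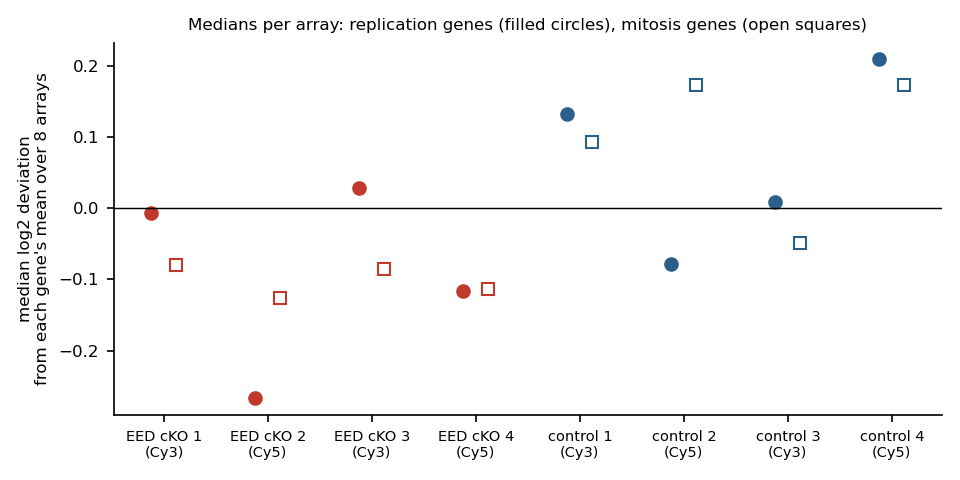
Median log2 deviation of the replication genes (filled circles) and mitosis genes (open squares) from each gene's mean over 8 arrays (y axis) on every array (x axis, dye of the sample in brackets), EED cKO in red and control in blue. Mitosis genes lie between -0.13 and -0.08 on EED cKO arrays and between -0.05 and 0.17 on control arrays, whereas the circles of the genotypes overlap.

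The differences were larger on the arrays with Cy5 samples. On the Cy3 arrays the median log2 difference of the 58 genes was -0.06 and 38 of them were below 0. On the Cy5 arrays it was -0.31 and 52 were below 0, while the median of all features was 0.01 and 0.02. The medians were -0.02 and -0.29 for replication genes, and -0.10 and -0.33 for mitosis genes. All 16 genes that fell were lower in EED cKO within either dye, and 14 of them, all but Rb1 and Nusap1, had the larger difference on Cy5. The 16 were chosen as lower over these same arrays, which favours a shared sign within each dye, so that it is no separate support. Mcm4 differed by -0.27 on Cy3 and -1.06 on Cy5, Mcm6 by -0.43 and -1.06, Cdt1 by -0.32 and -0.97, Mki67 by -0.37 and -0.94, and E2f8 by -0.57 and -1.02. Fitted as an interaction of genotype and dye with limma, 14 of the 58 genes had an unadjusted p below 0.05 (24.1%, against 6.51% of all features), all with the lower value on Cy5, and 0 passed after adjustment, the smallest adjusted p being 0.627. The dye goes with the replicate number and the column of the slide, so that dye, column and replicate cannot be told apart.

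**Figure D4:**
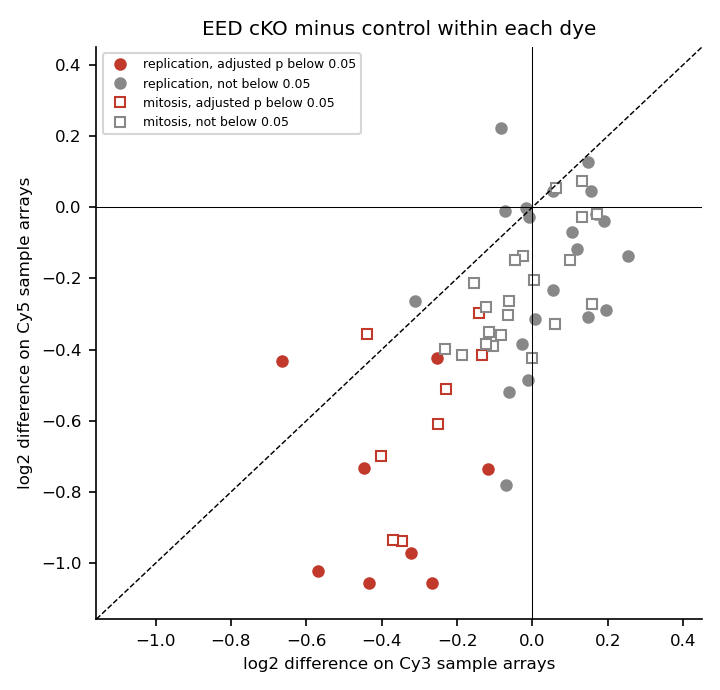
Log2 difference (EED cKO minus control) of the 58 genes on the arrays with Cy3 samples (x axis) against that on the arrays with Cy5 samples (y axis), 2 arrays of each genotype per dye, with red for an adjusted p below 0.05 over all arrays and a dashed line of equal values. Most points lie below the dashed line, and all 16 red points, chosen as lower on these same arrays, lie below 0 on both axes.

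The reference channel gave no call among these genes. The same 58 genes in the reference RNA of the EED cKO arrays against that of the control arrays gave log2 differences from -0.09 to 0.09, with 0 called and 0 at an unadjusted p below 0.05 (limma), and 114 of all features called. Epidermis held less of these RNAs than the reference pool. In control, 55 of the 58 genes were below the reference, with a median log2 ratio of -0.82, from -2.63 for Mki67 to 0.67 for Rfc3, and in EED cKO 56 were below it, with a median of -1.02. The 13 genes with several probes were taken from the brightest. For 6 of them all probes had the same sign, and for 7 (Birc5, Ccnb1, Ccne1, Cdc6, E2f7, Mybl2 and Tpx2) a dimmer probe had the opposite sign, at values between -0.23 and 0.08.

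Other cell cycle genes of the same machinery were read from 9 further lists of 158 genes, of which 155 were tested. In all, 35 of the 155 fell (22.6%, against 9.89% of all features called lower). Another 6 of the 155 rose, where 11.8% of all features were called higher. Of those 6, 2 rose by at least 2-fold, a limit that 1.20% of all features met in either direction. Condensin and cohesin subunits, which hold and compact sister chromatids, fell in 10 of 13 genes (76.9%, against 9.89% of all features), with a median of -0.39 and all 13 below 0, led by the cohesin subunits Smc3 (-0.61 ± 0.10, adjusted p = 0.00295) and Stag2 (-0.55 ± 0.08, adjusted p = 0.00191, limma). Polymerases and chromatin assembly factors at the fork fell in 7 of 24 genes (29.2%), led by Uhrf1, the adaptor of maintenance DNA methylation (-0.74 ± 0.17), and Rfc1, the large clamp loader subunit (-0.48 ± 0.09). Origin recognition and firing factors fell in 3 of 19 genes (15.8%, nearer to the 9.89% of all features), with Ticrr at -0.54 and Topbp1 at -0.36. Among D cyclins, CDKs and Cdc25 phosphatases 3 of 15 fell (20%), with Cdc25a at -0.71 and Ccnd3 at -0.49.

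Among further mitosis genes, against 9.89% of all features called lower, spindle and cytokinesis genes fell in 5 of 22 (22.7%), with Ckap5 at -0.63 and Aspm at -0.47, centromere and checkpoint genes in 3 of 28 (10.7%), with Incenp at -0.47 and Cdca8 at -0.35, and the anaphase-promoting complex in 2 of 16 (12.5%), with Anapc5 at -0.42 and Anapc1 at -0.38. Of the other E2F, pocket protein and MuvB subunits, the E2F partner Tfdp2 fell by 0.81 (SE 0.09) and Tfdp1 by 0.32, whereas the MuvB subunits Lin9 and Lin37 rose by 0.28 and 0.27, both named after their values were seen. Of the CDK inhibitors, 4 of 7 rose (57.1%, against 11.8% of all features) and 0 fell, while Cdkn1b (p27), Cdkn2d (p19Ink4d) and Cdkn1a (p21) were at -0.28 ± 0.13, -0.21 ± 0.09 and -0.13 ± 0.14. Cdkn2a, the locus of p16 and p19Arf, rose from a mean log2 ratio of -5.36 ± 0.29 (SD, n = 4) to -1.69 ± 0.22, a log2 fold change of 3.67 ± 0.09 SE (adjusted p = 6.98e-08, limma). Cdkn2b, which encodes p15, rose by 1.29 ± 0.11, and both genes were higher on the Cy3 and the Cy5 arrays by nearly the same amount (3.62 and 3.72 for Cdkn2a, 1.22 and 1.37 for Cdkn2b). Cdkn1c (p57) and Cdkn2c (p18), named, like those below 0, after their values were seen, rose by 0.64 ± 0.10 and 0.54 ± 0.07.

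**Figure D5:**
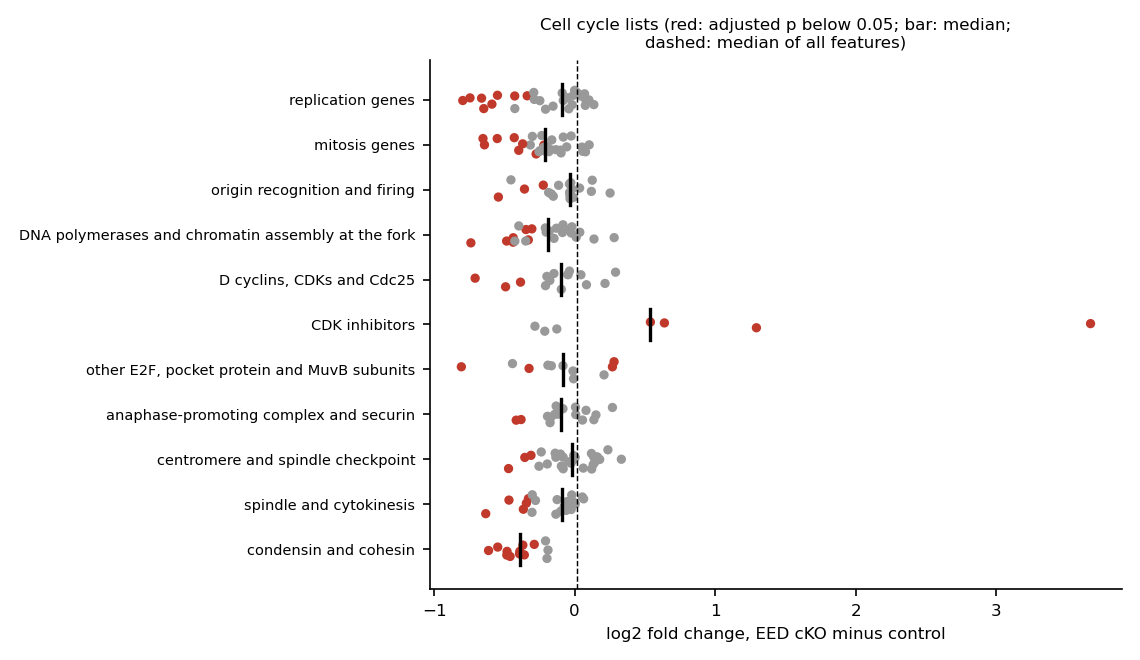
Log2 fold change (EED cKO minus control, x axis) of the tested genes of each list (y axis), red for an adjusted p below 0.05, with a black bar at the median of a list and a dashed line at the median of all features (0.02). Condensin and cohesin have the lowest median (-0.39), and the CDK inhibitors, with Cdkn2a at 3.67, the highest (0.54).

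Markers of the cell types in the epidermis moved in both directions or stayed level, and their part in the result was not tested. The counts below stand beside 9.89% of all features called lower and 11.8% called higher. Of the 7 markers of basal epidermis, where dividing cells lie, 3 fell, all of them parts of the adhesion to the basement membrane (Itga6 -0.74, Itgb4 -0.51, Col17a1 -0.33), while Krt5, Krt14, Krt15 and Trp63 were between 0.04 and 0.17. The summed level of the 7 was 17.5 to 17.8 in EED cKO and 17.9 to 18.1 in control (log2 of the summed sample channel). Of 7 hair follicle markers 2 fell (Lef1 by 0.76), with summed levels of 14.9 to 15.6 against 14.7 to 14.9, and 0 of 5 suprabasal markers changed. All 6 Merkel cell markers rose, led by Krt20 (1.12), with summed levels of 10.6 to 11.0 against 9.91 to 10.4. In control, Sox2 exceeded the background clearly on 0 arrays, Isl1 on 2 and Atoh1 on 2, while in EED cKO each did so on 4. Sox2, Isl1 and Atoh1 thus entered the test through their EED cKO arrays alone, and their control levels are less certain. Both tested endothelial markers rose (Pecam1 0.89, Kdr 0.62), at 11.8 to 12.3 against 11.1 to 11.7, whereas Cdh5 and Tek were well above background on no array. Immune markers rose in 2 of 5 (Cd3e 0.54, Cd74 0.46, at 10.8 to 11.1 against 10.5 to 11.1), fibroblast markers in 1 of 6 (Lum 0.50, at 14.5 to 14.7 against 14.6 to 15.1), and melanocyte markers fell in 1 of 6 (Sox10 -0.50, at 14.1 to 14.4 against 13.9 to 14.4). Skeletal muscle, erythroid and Schwann cell markers gave 0 calls among 8 tested, with Myh3 and Cdh19 well above background on no array.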

How the data were processed

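Epidermal RNA of 4 EED cKO and 4 control newborn mice was labelled from 100 ng and hybridised with a common reference on 2-colour Agilent arrays. The deposited spot intensities and log10 ratios are the output of Agilent Feature Extraction 12.0.1.1, per the file headers. The deposited table of log2 ratios was made by the authors with GeneSpring and served as an alternative.

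Median spot intensities were background-corrected (normexp, offset 50), normalised within arrays by loess and turned to sample over reference with limma 3.58.1 in R 4.3.3, and repeated spots were averaged. A probe entered the fit where Feature Extraction marked the sample signal as well above background on 3 or more arrays of either genotype. Accessions of 28026 of 29796 RefSeq probes matched a gene, and the kept probe with the highest mean signal stood for its gene. No value of the 58 genes was missing, and 32 missing values of other features were filled. Genotype and dye were fitted with limma's moderated test, with Benjamini-Hochberg adjustment over 23234 features, and called at an adjusted p below 0.05. An exact two-sided permutation test over the 8 arrays was added for each of the 58 genes. The array design is on mm9, and names and promoters come from RefSeq GRCm38.p6.

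The members and lists were chosen with earlier results of these data known. Values on every array are given for up to 3 genes a role, those with the largest fold change among those called, or the largest where none was called, and up to 2 called genes are named in each further list. Same-numbered samples share a dye and a column of the slide and deviated together (correlations 0.489, 0.679, 0.327 and 0.364 over all features), so that the replicate number was tried as a block. The limma fit was checked on simulated data with known changes. The other 25 alternatives, including the methods' t-test, single arrays left out and other normalisations, are summarised at the close. Samples are biological replicates per the labels. The result for 1 gene outside the 60 is not reported here.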

Additional observations from a re-analysis of the deposited data

Results flagged for a closer look

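Among the 58 genes, 6 of 116 groups of 4 arrays had 1 array far from the other 3, where the test applied (Dixon's) marks about 5% of groups by chance. In EED cKO, Rfc4 was lowest on replicate 2 at -0.85, with the next array at -0.49. Melk was highest on EED cKO replicate 4 at -0.78, against -0.90. Cenpe was highest on EED cKO replicate 2 at -2.54, against -2.74, and Foxm1 was lowest on EED cKO replicate 4 at -1.24, against -1.04. In control, Cenpa was highest on replicate 4 at -0.35, against -0.48, and Mybl2 was lowest on replicate 3 at -1.52, against -1.01. Of these genes, Cenpe was called, and its outlying array lay on the side of the controls.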

How the results depend on the processing

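The 16 genes that fell, chosen on these same arrays, were below 0 under all 26 alternatives, and E2f8 and Mcm6 were called under each. Without a dye term 9 genes were called (5 replication, 4 mitosis), with 10.2% of all features called. The methods' t-test called 21 lower and 1 higher by unadjusted p, and 2 after Benjamini-Hochberg (2 replication, 0 mitosis). Of all features it called 24.2% and 3.90%. Median centring in place of loess called 12, of which 5 were mitosis genes, and moved the medians to -0.34 for all 58 genes, each of them below 0, -0.27 for replication and -0.37 for mitosis, with the median of all features at -0.04, and the share of all calls that are lower from 45.7% to 60.3%. Calls were 14 with the Feature Extraction log ratios, the deposited table, the sample channel alone and no filter on dim probes, 15 with no background correction and an intensity trend, 16 with Aquantile and the median over probes, 18 with a stricter filter, 19 with quantile normalisation, 21 with array weights and 13 with Y-linked level as a covariate. Median centring called 11.0% of all features, and the settings just listed called 12.1% to 23.9%. The replication median was -0.24 with Y-linked level as a covariate and -0.25 on the arrays without Y-linked RNA, an alternative chosen after seeing the data. Leaving out each array in turn gave 11 to 22 calls, 11 without EED cKO replicate 2 or 4 or control replicate 2 or 4 and 22 without control replicate 3. The share of all features called then ranged from 11.7% to 21.8%. Replication calls ranged from 6 to 10 and mitosis calls from 5 to 12, the medians from -0.24 to -0.15 (all), -0.21 to -0.06 (replication) and -0.25 to -0.17 (mitosis), and calls higher and calls at 2-fold stayed at 0. With the replicate number as a block 17 genes were called, 15 of them among the 16: Aurkb was lost and Ccnb1 and Top2a were gained, and no other call of the 58 changed. The cause of these changes was not tested, and fits without an array also hold fewer arrays. Fold changes are compressed for dim probes, and 4 arrays a genotype limit the precision.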
